A study of Mus musculus with 6 samples.

Results

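The genes described here encode 10 intracellular proteins that work downstream of the receptor CD28: the adaptors Nck1, Nck2, Grb2 and Pik3ap1, the exchange factor Vav1, the phosphoinositide 3-kinase (PI3K) subunits Pik3r1, Pik3cd and Pik3cg, and the kinases Akt1 and Prkcd. They were chosen by symbol, with measured FPKM differences between the genotypes in these same libraries already known, from the 14574 genes listed in any library, and all 10 were listed in every library and passed the filter on low values. RNA sequencing was done on mouse bone marrow-derived macrophages (marrow cells matured in culture by the growth factor M-CSF), with 3 libraries from Cd28 knockout (Cd28 KO) mice and 3 from wild-type C57BL/6J (WT) mice. In both groups the mice were 6 to 10 weeks old, and marrow from the femurs was kept for 7 days in medium holding 10% serum and 25 ng/ml of human M-CSF, renewed every 2 days and otherwise untreated. The labels used here do not give the targeted part of Cd28, the background strain of the Cd28 KO mice or the number of animals behind a library.

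CD28 is best known as a costimulatory receptor of T cells, which binds the B7 proteins CD80 and CD86 on other cells. It has no enzyme activity of its own, and its short cytoplasmic tail recruits adaptors and PI3K once a tyrosine in it is phosphorylated. PI3K makes a membrane lipid that draws in the kinase Akt and exchange factors of the Vav family, while Nck adaptors link phosphorylated tyrosines to the actin machinery. Macrophages use the same adaptors and kinases below other receptors, among them the M-CSF receptor, Fc receptors and integrins.

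Docking sites for the regulatory subunit of PI3K and for Grb2 lie in the last coding exon of Cd28. It is shown because the products of the members Pik3r1 and Grb2 bind there. The sequence is the 126 coding bases of exon 4 in the GENCODE transcript (GRCm38, chr1:60769657-60769782, plus strand). The first run of capitals encodes the YMNM site, to which the regulatory subunit of PI3K and Grb2 bind through their SH2 domains. The second run encodes the proline-rich PYAP site, which SH3 domains such as those of Grb2 bind.
Cd28 exon 4: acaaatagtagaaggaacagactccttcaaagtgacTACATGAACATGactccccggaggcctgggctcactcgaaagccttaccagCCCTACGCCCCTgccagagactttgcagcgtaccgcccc

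Cd28 itself, looked at as a check of the labels, was listed in all libraries. In FPKM, the number of fragments scaled to transcript length and to the mapped fragments of the library, it stood at 25.7, 24.2 and 26.9 in Cd28 KO and at 38.2, 30.1 and 51.1 in WT (replicates 1 to 3). Every Cd28 KO library lay below every WT library, as for 2.87% of all tested genes, and the mean was 64.3% of that in WT. An exact two-sided permutation test gave p = 0.1, the smallest that 3 against 3 allows. The level of Cd28 alone therefore does not settle the labels. Leaving out WT replicate 3 moved the difference from -14.2 to -8.56 FPKM. One value per gene cannot tell which exons the reads covered.

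Nck2 was the member that set the genotypes apart. It stood at 6.37, 5.25 and 4.72 FPKM in the WT libraries (replicates 1 to 3). In the Cd28 KO libraries it stood at 2.09, 2.23 and 2.01 FPKM, all below every WT value. Grb2 also lay lower in every Cd28 KO library, by a few percent, and the other 8 members overlapped between the genotypes. Because results of this comparison were known when the members were listed, their differences between genotypes are a description, and nothing is read from the limma calls among them.

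The libraries carried the defining markers of macrophages, with all 8 of the macrophage markers above 1 FPKM on average and a sum of 14104 to 16869 FPKM. Most of that sum was Lyz2, at 9652 to 12716 FPKM. T cells, in which this pathway is best known, left little trace: Cd3d and Trac were in none of the files, and Cd3e and Cd3g were listed in WT replicate 3 alone, at 0.07 and 0.21 FPKM. The summed T cell markers reached 6.42 to 9.27 FPKM in Cd28 KO against 7.59 to 9.19 in WT, mostly from Cd4 and Cd247, which had means above 1 FPKM. B cell and NK cell marker sums stayed at or below 1.22 FPKM. Neutrophil marker sums were 3.46 to 8.27 FPKM in Cd28 KO against 2.03 to 6.10 in WT, and dendritic cell sums 1.82 to 2.20 and 1.41 to 2.79. Replicate 3 of each genotype lay apart from the other libraries, on a first principal component that held 73.8% of the variance. The replicate 3 libraries alone listed the Y-linked genes Eif2s3y, Ddx3y, Kdm5d and Uty. Eif2s3y stood there at 39.1 FPKM (Cd28 KO) and 31.8 FPKM (WT), and Ddx3y at 10.6 and 14.4 FPKM. Male cells were thus seen in replicate 3 alone, and sex cannot be told apart from other differences of replicate 3. In bulk RNA, fewer cells of a type and less RNA per cell cannot be told apart.

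The members differed widely in level. By mean FPKM over the 6 libraries, which compares genes per length, the order was Prkcd (154), Grb2 (150), Akt1 (147), Pik3ap1 (134), Vav1 (54.2), Pik3cd (35.7), Pik3cg (18.4), Pik3r1 (16.2), Nck1 (11.8) and Nck2 (3.78). The top 4 overlapped from one to the next over the libraries, so their order is not resolved. Pik3ap1 stayed above Vav1 and Vav1 above Pik3cd with no overlap. From Pik3cd downward each range overlapped the next, although Pik3cd exceeded Pik3cg, and Nck1 exceeded Nck2, in 6 of 6 libraries. The spread among libraries also differed by member: the highest Grb2 value was 1.09 times the lowest, against 2.89 times for Nck1 and 3.17 times for Nck2. Grb2, Akt1, Pik3ap1 and Prkcd lay above at least 94.4% of the tested genes, whereas Nck2 lay above 18.3%.

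**Figure D1:**
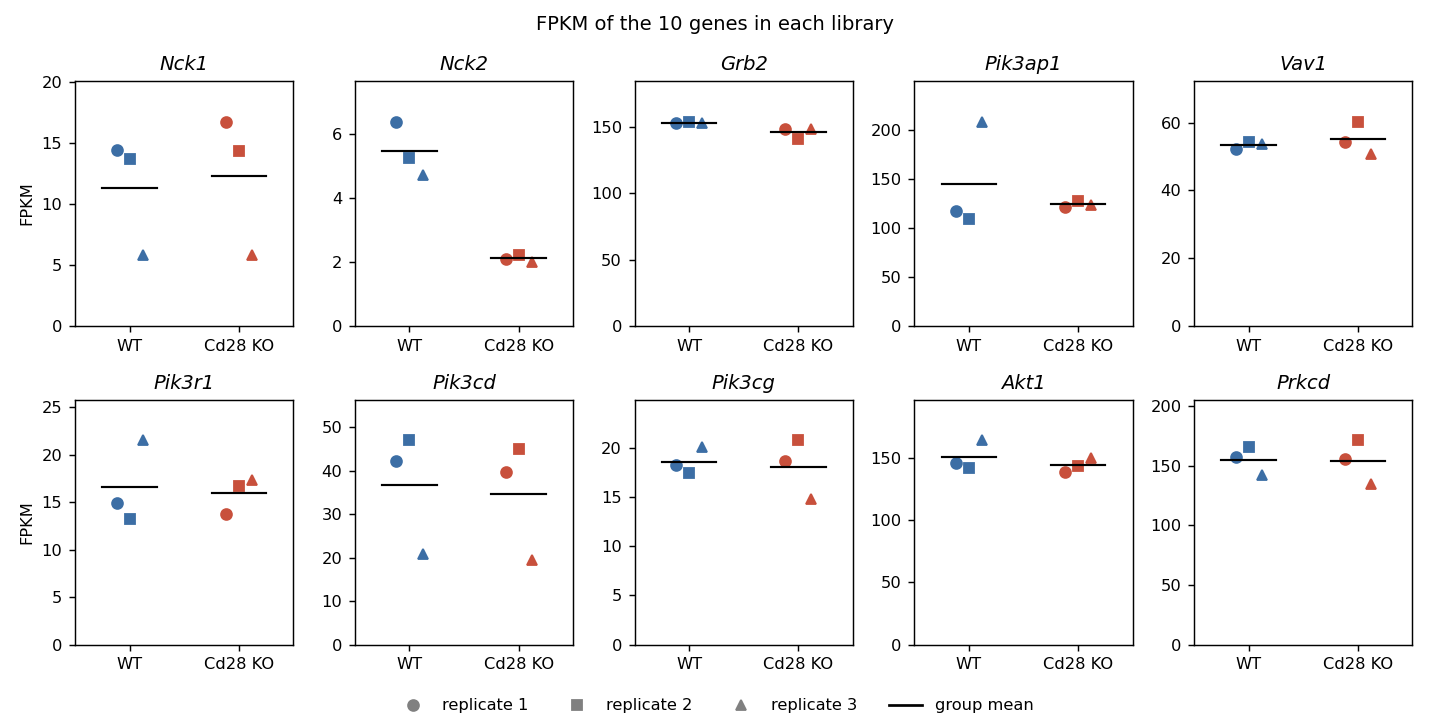
FPKM (vertical axes, from 0) of the 10 genes in each WT and Cd28 KO library, with the replicate number as the symbol and the group mean as a bar. Nck2 separates the genotypes at 4.72 to 6.37 against 2.01 to 2.23 FPKM, while Nck1 and Pik3cd fall in replicate 3 of both.

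The adaptors differed among themselves. Nck2 (Entrez 17974, chromosome 1, 43445483 to 43570518, GRCm38) averaged 5.45 ± 0.842 FPKM over the WT libraries and 2.11 ± 0.111 over the Cd28 KO libraries (SD, n = 3 per group), a ratio of 0.387. Same-numbered libraries gave ratios of 0.328, 0.425 and 0.426. The difference was -1.04 ± 0.15 (SE) on the log2(FPKM + 1) scale, where the added 1 shrinks the change of a gene this low. Among all 10172 tested genes, 2 had a larger decrease on this scale, and 12, Nck2 included, had an absolute difference at least as large. Since Nck2 was listed with this contrast known, its rank is a description. Nck2 lies on chromosome 1, 17.3 Mb from Cd28, and is the only member on that chromosome.

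Nck1 (Entrez 17973, chromosome 9, 100494302 to 100546134), the other Nck gene, encodes an adaptor of the same build of SH3 and SH2 domains. It stood at 16.7, 14.3 and 5.86 FPKM in Cd28 KO and at 14.4, 13.7 and 5.79 in WT. Replicate 3 was the low library in both genotypes, and the genotypes overlapped (log2 difference 0.09 ± 0.44, SE). The replicate 3 shift enters that SE, which was 0.11 with the replicate block. The share of Nck2 in the sum of both Nck genes was 30.6%, 27.7% and 44.9% in the WT libraries. In the Cd28 KO libraries it was 11.1%, 13.5% and 25.5%, each below every WT share. The sum itself overlapped, at 7.87 to 18.8 FPKM in Cd28 KO against 10.5 to 20.8 in WT, with replicate 3 lowest in each.

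The 2 Nck genes had no word of 31 bases in common among their GENCODE transcripts. Nck2 shared 12.0% of such words with transcripts of 9 other genes, so RSEM, which divides ambiguous reads by estimation, may have shared part of its reads with them. For Grb2 the share was 12.1%, with 2 genes of predicted-gene (Gm) names, and for Nck1 4.59%, also with 2. The other 7 members shared at most 1.01% of their words.

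The promoters of the Nck pair are shown because these related genes behaved differently between the genotypes. Each sequence is the 250 bases before a transcript start site in RefSeq (GRCm38.p6), Nck1 at chr9:100546135-100546384 on the minus strand and Nck2 at chr1:43445501-43445750 on the plus strand. The Nck2 start site lies inside the annotated span of the gene, and so does its window. For Nck1 the table holds 2 windows, of which the one listed first is shown. Capitals mark the GC box GGGCGG, the core to which Sp1-type factors bind, or its complement CCGCCC.
Nck1 promoter: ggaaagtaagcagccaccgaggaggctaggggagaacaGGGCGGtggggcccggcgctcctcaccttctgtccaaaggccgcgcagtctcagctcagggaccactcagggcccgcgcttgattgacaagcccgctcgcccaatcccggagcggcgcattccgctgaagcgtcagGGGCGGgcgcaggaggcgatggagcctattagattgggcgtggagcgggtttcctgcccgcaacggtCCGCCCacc
Nck2 promoter: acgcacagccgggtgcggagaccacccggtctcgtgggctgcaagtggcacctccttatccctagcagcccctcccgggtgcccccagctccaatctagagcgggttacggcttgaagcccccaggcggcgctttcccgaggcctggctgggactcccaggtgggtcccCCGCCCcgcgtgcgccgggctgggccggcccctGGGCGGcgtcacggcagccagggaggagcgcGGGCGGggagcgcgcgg

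Both windows shown held 3 GC boxes, on either strand. G or C made up 67.6% of this Nck1 window and 75.2% of the Nck2 window, which is above 87.1% and 96.1% of all promoter windows in the table. The GC box was found in 32.7% of 32851 promoter windows and in 8 of 18 windows of the members, which covered 7 of the 10 genes. GAGGAA, a core of sites for the macrophage factor PU.1, was in 23.3% of all windows, in 4 of 18 windows of the members and in neither window shown, searched on both strands. These matches describe the letters and no binding was measured.

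Most of the genes next to Nck2 overlapped between the genotypes. The nearest tested genes were Mrps9, Tgfbrap1 and AI597479 before it and Uxs1, Tpp2 and Tex30 after it, with starts 301 to 641 kb away. Tgfbrap1, which encodes a protein of endosomal tethering, stood at 8.51 to 10.6 FPKM in Cd28 KO against 12.7 to 17.7 in WT, lower in every Cd28 KO library (log2 difference -0.55 ± 0.17, SE). Mrps9, a mitochondrial ribosomal protein gene, stood higher in every Cd28 KO library, at 21.5 to 26.5 against 17.4 to 19.9 FPKM. Over all tested genes, 2.87% were lower and 3.84% higher in every Cd28 KO library. The other 4 neighbours had log2 differences of -0.03 to 0.14 and overlapped. None of the 6 was called by limma, with or without the replicate block. Differences in chromosome 1 sequence between the mouse lines and an effect of losing Cd28 cannot be told apart in this design.

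**Figure D2:**
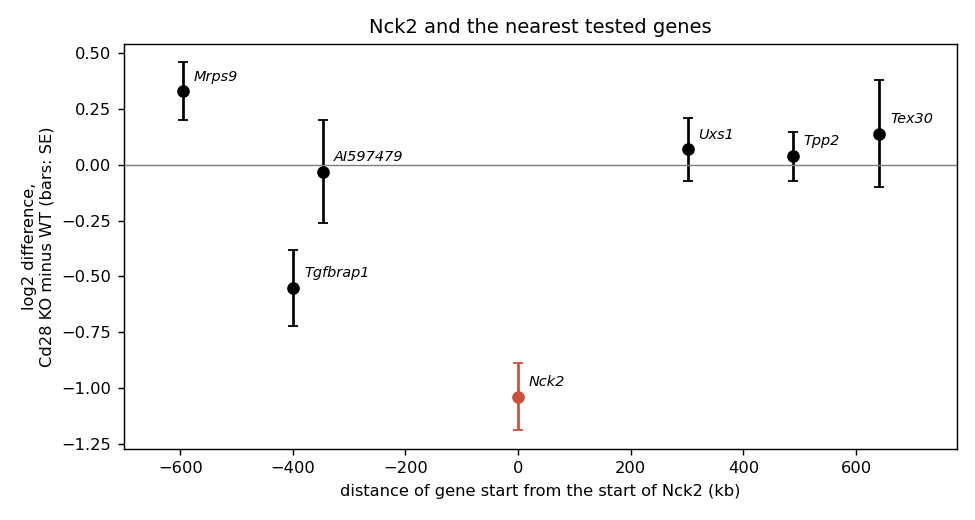
Log2 difference (Cd28 KO minus WT, vertical axis, bars SE, n = 3 each) of Nck2 and its 6 nearest tested genes against the distance between gene starts in kb. Nck2 lies at -1.04 and Tgfbrap1 at -0.55, while the others lie between -0.03 and 0.33.

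Across the 6 libraries, the tested genes whose log2 levels correlated most with Nck2 were Ctsb, Mrgpre, Eng, Polr3g and Acadl, with Pearson r from 0.962 to 0.983. All 5 were lower in every Cd28 KO library, as were 2.87% of all tested genes. Picking genes by their correlation with Nck2, which separates the genotypes, favours this, so nothing is read from it. Ctsb, which encodes cathepsin B, differed by -0.09 on the log2 scale, while Acadl, an acyl-CoA dehydrogenase on chromosome 1, differed by -0.75. The lowest correlations were those of Ddx59, at -0.996, and Rab4a, a GTPase of recycling endosomes, at -0.986. Rab4a stood at 10.9 to 13.7 FPKM in Cd28 KO against 4.14 to 5.28 in WT. These are descriptions over 6 points in which the genotype is shared by all genes that separate it.

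Grb2 (Entrez 14784, chromosome 11, 115644045 to 115708597), the adaptor that couples receptors to the Ras exchange factor Sos, stood at 149, 141 and 149 FPKM in Cd28 KO and at 152, 154 and 153 in WT. The groups did not overlap, but the gap was small, with a ratio of means of 0.954 and a log2 difference of -0.07 ± 0.08 (SE). Its relatives Grap and Grap2, which have the same arrangement of domains, made up at most 4.81% and 1.30% of the summed FPKM of the family. Grb2 held 94.6% to 96.7% in every library.

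Pik3ap1 (Entrez 83490, chromosome 19, 41272541 to 41385102), also named BCAP, is an adaptor that binds PI3K below B cell and Toll-like receptors. It stood at 122, 127 and 123 FPKM in Cd28 KO and at 117, 109 and 208 in WT. WT replicate 3 was the single high library, and the groups overlapped. The log2 difference was -0.16 ± 0.23 (SE) over all libraries and 0.13 ± 0.09 in replicates 1 and 2 alone. Without WT replicate 3 it was also 0.13.

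Vav1 (Entrez 22324, chromosome 17, 57279100 to 57329236), an exchange factor that activates Rac GTPases in blood cells, was among the steadiest members. It stood at 54.1, 60.2 and 50.8 FPKM in Cd28 KO and at 52.2, 54.3 and 53.7 in WT, with the WT range inside that of Cd28 KO. Vav1 held 71.9% to 74.6% of the summed FPKM of the Vav family, Vav3 20.1% to 21.8% and Vav2 4.73% to 6.37%. Vav2 held a smaller share in all Cd28 KO libraries (4.94% ± 0.268) than in each WT library (6.00% ± 0.542, SD, n = 3 per group). The FPKM of Vav2 itself overlapped between the genotypes. This share was picked out from those of all the related families and was not tested.

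Among the PI3K subunits no member separated the genotypes. Pik3cd (Entrez 18707, chromosome 4, 149649168 to 149702566), the catalytic subunit p110 delta of leukocytes, stood at 39.7, 45.0 and 19.4 FPKM in Cd28 KO and at 42.2, 47.0 and 20.8 in WT. Replicate 3 was the low library in both groups, and the ratio within each replicate number was 0.939, 0.956 and 0.933. Pik3cg (Entrez 30955, chromosome 12, 32173397 to 32208677), the catalytic subunit p110 gamma that acts below G protein-coupled receptors, stood at 18.7, 20.8 and 14.8 FPKM in Cd28 KO and at 18.3, 17.5 and 20.1 in WT. Here replicate 3 was the lowest Cd28 KO library and the highest WT library. Pik3r1 (Entrez 18708, chromosome 13, 101680761 to 101768217), which encodes the regulatory subunit p85 alpha that binds YMNM, stood at 13.8, 16.8 and 17.3 FPKM in Cd28 KO and at 14.9, 13.3 and 21.5 in WT. Replicate 3 was its highest library in both groups.

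The makeup of the PI3K subunits in replicate 3 differed from that in replicates 1 and 2 in both genotypes. Of the summed FPKM of the 4 class I catalytic genes, Pik3cd held 49.8%, 49.6% and 32.9% in Cd28 KO and 49.0%, 51.6% and 29.1% in WT. Pik3cb, the more widely expressed p110 beta, held 17.2% to 20.2% in replicates 1 and 2 and 32.7% and 33.6% in replicate 3. Pik3ca held 8.93% to 10.2% and Pik3cg 19.2% to 28.1%. Of the 5 regulatory genes, Pik3r5, the partner of p110 gamma, held the largest share in every library, at 47.5% to 63.2%. Pik3r1 held 14.1% to 16.2% in replicates 1 and 2 and 25.2% and 24.9% in replicate 3.

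**Figure D3:**
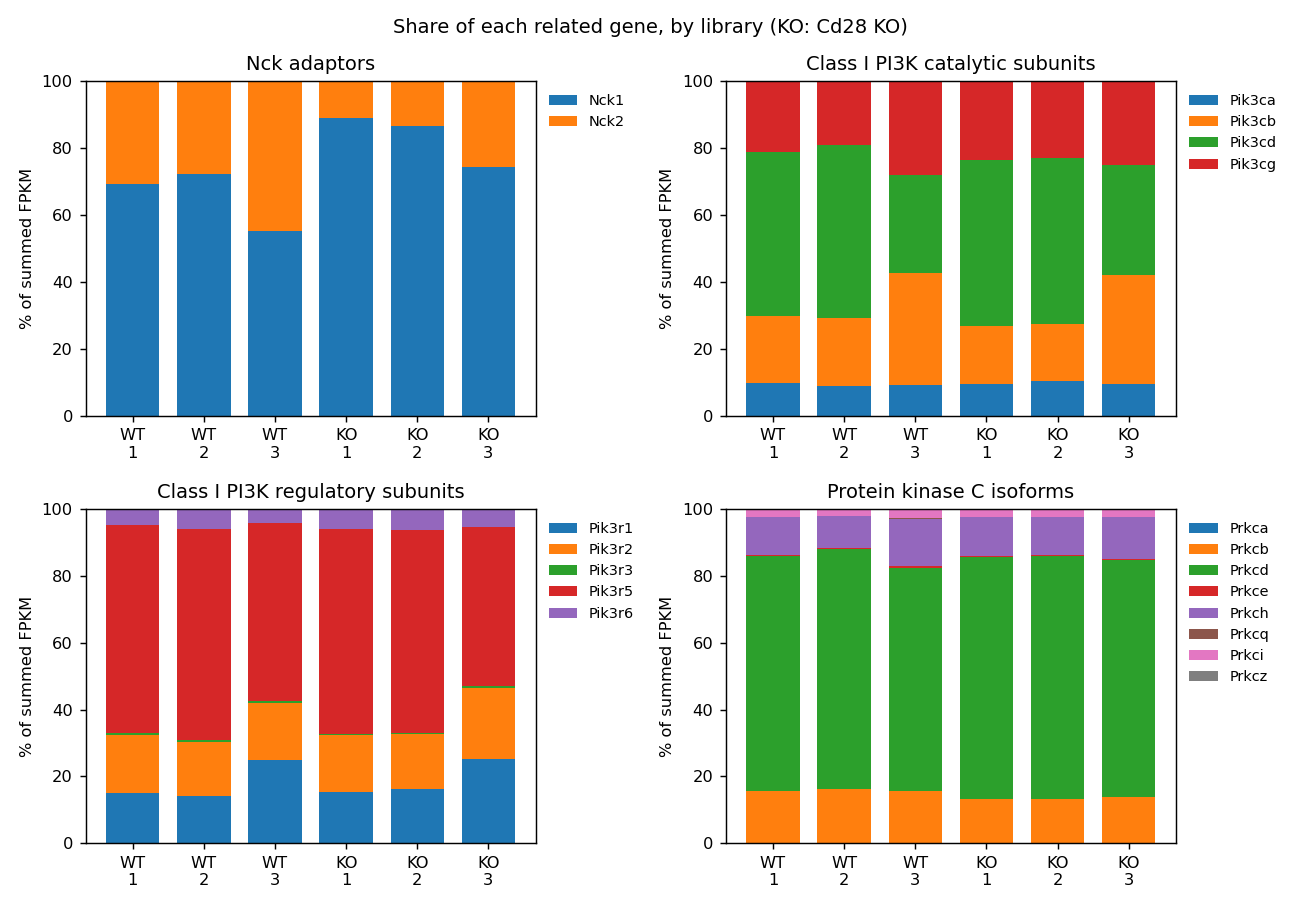
Share of summed FPKM (percent, bars from 0 to 100) held by each related gene in every library, for the Nck adaptors, the class I PI3K catalytic and regulatory subunits and the protein kinase C isoforms. The Nck2 share is 27.7% to 44.9% in WT and 11.1% to 25.5% in Cd28 KO, and the Pik3cd share is 29.1% and 32.9% in replicate 3 against 49.0% to 51.6% elsewhere.

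The downstream kinases were abundant and similar between the genotypes. Akt1 (Entrez 11651, chromosome 12, 112653821 to 112674884), the kinase that PI3K lipids bring to the membrane, stood at 139, 144 and 150 FPKM in Cd28 KO and at 146, 142 and 164 in WT. Its log2 difference was -0.06 ± 0.10 (SE), and it held 75.7% to 80.0% of the summed FPKM of the 3 Akt genes. Prkcd (Entrez 18753, chromosome 14, 30595353 to 30626414), protein kinase C delta, stood at 156, 171 and 135 FPKM in Cd28 KO and at 157, 166 and 142 in WT. Its log2 difference was -0.01 ± 0.12 (SE). Prkcd held 66.5% to 72.7% of the summed FPKM of 8 protein kinase C isoforms. Prkcq, protein kinase C theta, which acts below CD28 in T cells, did not exceed 0.15 FPKM and was absent from the files of 2 Cd28 KO libraries. Prkcb held 13.0% to 13.8% in Cd28 KO and 15.6% to 16.1% in WT, with no overlap.

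Several members moved with replicate 3 in both genotypes. For Nck1, replicate 3 minus the mean of replicates 1 and 2 was -1.26 in Cd28 KO and -1.15 in WT on the log2 scale. For Pik3cd the differences were -1.08 and -1.06. Nck1, Pik3cd and Prkcd lay lower in both replicate 3 libraries than in any of the other 4, as did 33.7% of all tested genes. Pik3r1 and Akt1 lay higher in both, as did 15.3% of all tested genes. Nck2 overlapped, with differences of -0.07 in Cd28 KO and -0.25 in WT. Pik3ap1 differed by 0.87 in WT and by -0.01 in Cd28 KO, a contrast that rests on 1 library in each group and was not tested.

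**Figure D4:**
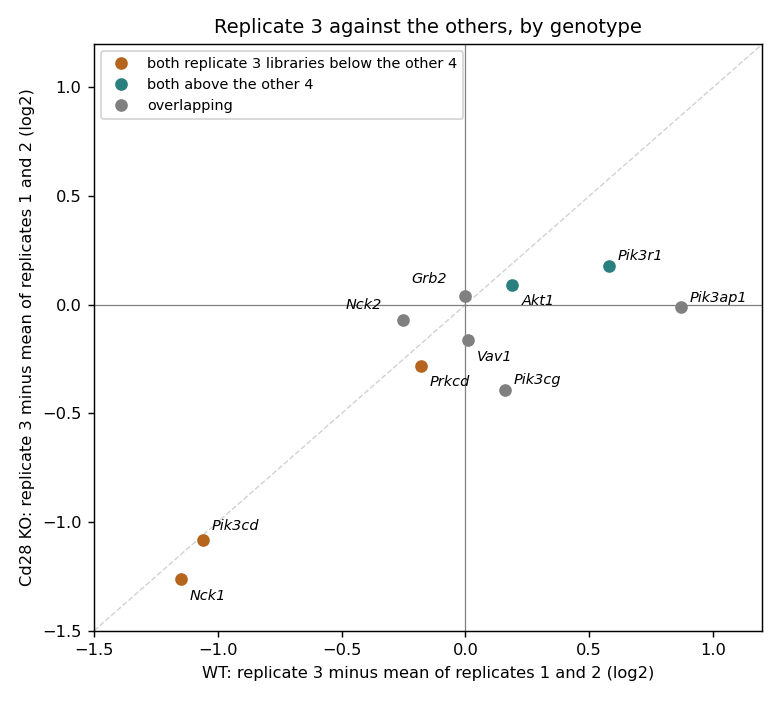
Log2 difference of replicate 3 from the mean of replicates 1 and 2, in WT (horizontal axis) and in Cd28 KO (vertical axis), 1 point per gene, with the diagonal dashed. Nck1 and Pik3cd lie near -1.26 to -1.06 on both axes, and Pik3ap1 at 0.87 in WT and -0.01 in Cd28 KO.

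A fit across all genes gave the background for these values. Limma called 0.0197% of the 10172 tested genes at an adjusted p below 0.05 without a block and 0.177% with the replicate number as a block. It called 0 of the 10 members without a block, and 1 with it, Nck2, as lower, where 0.0393% of all genes were called lower. With a batch term for replicate 3, and in replicates 1 and 2 alone, Nck2 was again the 1 member called, beside 0.275% and 0.698% of all genes in either direction and 0.0786% and 0.305% called lower. Nck2 and Grb2, 2 of the 10, were lower in every Cd28 KO library, as were 2.87% of all tested genes, and 0 were higher, against 3.84%. Since the members were chosen with this contrast known, nothing is read from these counts. Over the 9 members other than Nck2 the log2 differences ran from -0.16 to 0.09 with a median of -0.05, beside -0.003 over all tested genes. That median was 0.10 in replicates 1 and 2 alone and 0.08 without Cd28 KO replicate 3.

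The rest of the pathway was described by 92 further genes in 8 lists by function, of which 83 passed the filter. Limma called 0 of the 83, with or without the replicate block. An unadjusted limma p below 0.05 was reached by 8 with the block, beside 803 of all 10172 tested genes. Without the block it was reached by 3, beside 253 of all tested genes. Those 3 were Cd28, the ubiquitin ligase gene Cblb and Prkcb. Their log2 differences were negative in 58 of 83, with a median of -0.07, against 50.9% negative and a median of -0.003 over all tested genes. The count moved with the setting: 69 of 83 were negative on the TPM scale (65.2% of all genes), 42 of 83 without Cd28 KO replicate 3 (39.1%) and 38 of 83 in replicates 1 and 2 alone (42.9%). The genes lower in every Cd28 KO library were 5 of 83, beside 2.87% of all tested genes. Higher in every one were 0 of 83, beside 3.84%. The 5 were Cd28, Cblb, Pak1, Phlpp2 and Prkcb, chosen here after their values were seen. Of these, Cd28 is the targeted gene, and Phlpp2, at a mean of 1.02 FPKM, barely passed the filter.

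Upstream of the members, the level of a ligand differed between replicate 3 and the other libraries. Cd86, which encodes a B7 ligand, stood at 3.76, 3.77 and 26.1 FPKM in Cd28 KO and at 2.96, 2.37 and 26.0 in WT. Of the 4 genes of the receptor and ligand list, 1 was negative, Cd28. Among the 8 tested tyrosine kinases that phosphorylate such receptors, 5 were negative and the median was -0.04. Syk stood at 56.1 to 67.8 FPKM in Cd28 KO against 60.3 to 81.9 in WT, and Lyn at 58.9 to 70.7 and 56.6 to 80.6.

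Adaptors and actin partners around the Nck and Grb2 members showed small differences. Of 19 other adaptors and scaffolds, 14 were negative and the median log2 difference was -0.07. Lat2, a membrane scaffold of myeloid cells, stood at 195 to 244 FPKM in Cd28 KO against 192 to 237 in WT, and Skap2 at 92.2 to 142 and 96.8 to 124. Of the 11 tested Nck partners of the actin machinery, 8 were negative and the median was -0.11. Brk1 stood at 167 to 207 against 153 to 195 FPKM and Nckap1l, a subunit of the WAVE complex that drives actin branching, at 109.6 to 161 against 147 to 162. Pak1, a kinase that Nck brings to the membrane, stood at 27.1 to 28.5 against 30.2 to 32.0 FPKM, without overlap.

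Over all 6 libraries, most genes around PI3K and Akt overlapped between the genotypes, and the exceptions were Phlpp2 and Prkcb. Such overlap can hide differences within a replicate number, since replicate 3 stood apart. Phlpp1, a brake on PI3K signalling, had ratios of Cd28 KO to WT of 0.673, 0.752 and 0.612 in replicates 1 to 3. Those of Pik3cb were 0.803, 0.849 and 0.802. Both were picked out after their values were seen, and neither was called with the replicate block. Of 5 other tested class I subunits 4 were negative, with Pik3r5 at 32.6 to 62.9 FPKM in Cd28 KO against 45.8 to 61.2 in WT, and Pik3cb at 13.8 to 19.3 and 17.2 to 24.1. Among 9 tested brakes on PI3K signalling 6 were negative and the median was -0.07. The phosphatase genes Ptpn6 and Inppl1 stood at 162 to 223 against 151 to 207 FPKM and at 51.9 to 105 against 55.8 to 94.8. Phlpp2, a phosphatase gene of the same list, stood at 0.66 to 1.01 FPKM in Cd28 KO against 1.12 to 1.21 in WT. Its mean over the 6 libraries, 1.02 FPKM, passed the filter only through the WT values (mean 1.15, against 0.887 in Cd28 KO). Of 18 genes of the Akt and mTOR axis, 15 were negative, with a median of -0.08 and differences from -0.31 to 0.10. The counts by list were taken over all 6 libraries, where 50.9% of all tested genes were negative. In replicates 1 and 2 alone, 38 of the 83 pathway genes were negative, beside 42.9% of all genes. Eif4ebp1, a translation repressor that mTOR switches off, stood at 59.9 to 92.3 against 60.7 to 74.8 FPKM, and the kinase gene Gsk3a at 52.3 to 67.1 against 54.2 to 69.3. Of 9 tested genes of protein kinase C, phospholipase C gamma and their signalling partners, 5 were negative and the median was -0.03. Plcg2 stood at 48.1 to 60.9 against 51.0 to 57.1 FPKM, and Bcl10 at 39.4 to 46.2 against 38.0 to 41.8. Prkcb stood at 26.3 to 30.9 in Cd28 KO and 33.2 to 37.2 in WT, without overlap, at a log2 difference of -0.30 ± 0.11 (SE).

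**Figure D5:**
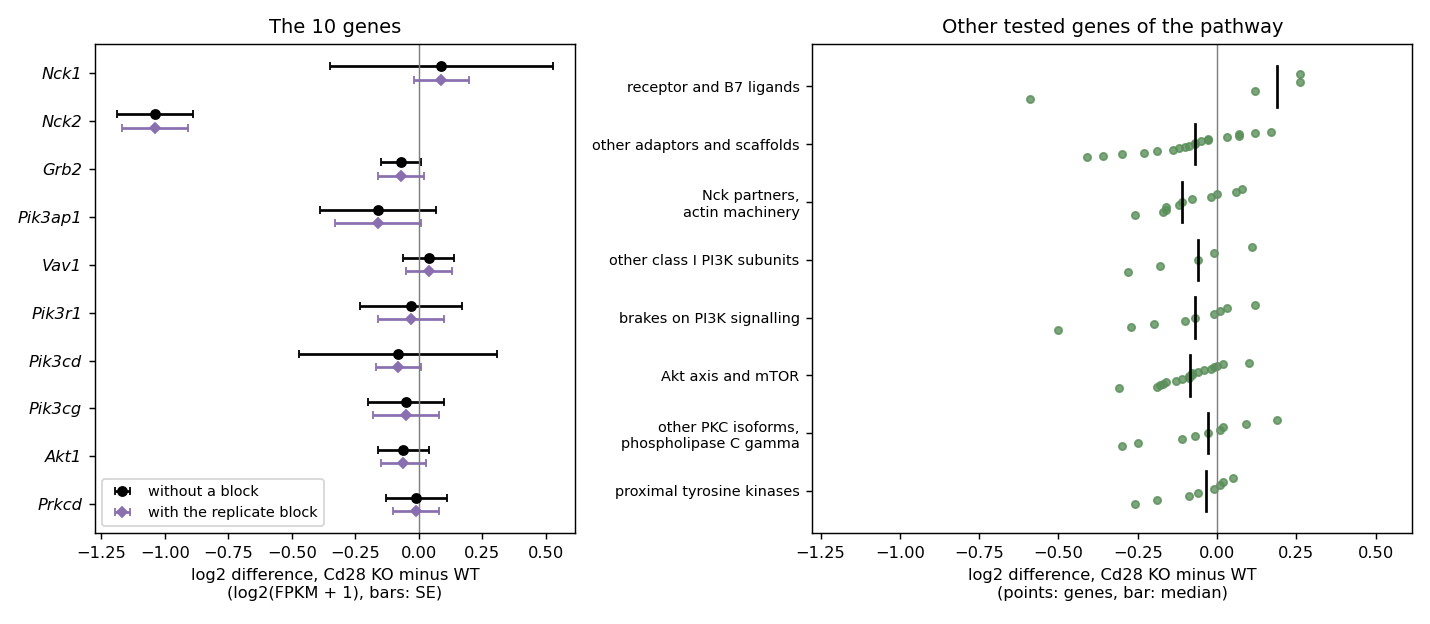
Log2 differences (Cd28 KO minus WT, horizontal axes, log2(FPKM + 1)) of the 10 genes, with SE without and with the replicate block (left), and of the 83 other tested pathway genes by list with the median as a bar (right). Nck2 lies at -1.04, the other 9 between -0.16 and 0.09, and the 83 genes between -0.59, for Cd28, and 0.26.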

How the data were processed

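The submitters' processing notes name Bowtie, RSEM and GRCm38, with no versions or read depth. The authors deposited FPKM per Entrez gene. A gene absent from a file was set to 0. Each library listed 12768 to 13327 genes. Of 14574 genes, 14551 matched RefSeq for GRCm38.p6, the source of symbols and coordinates, and 23 did not. Limma 3.58.1 (R 4.3.3, empirical Bayes with trend, no block) was fitted to log2(FPKM + 1) of 10172 genes whose mean reached 1 FPKM, with calls at a two-sided Benjamini-Hochberg adjusted p below 0.05. The fits were tested on simulated data. Python 3.11.15 was used with SciPy 1.17.1, NumPy 2.4.6, pandas 2.3.3 and Matplotlib 3.10.9.

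The members and lists were chosen with earlier results of these data known. Some pathway genes are not reported here and are left out of the counts. Named are all members, Cd28, genes of the related families (some only in the plot of shares), called genes or else the 2 most abundant of each list, and for Nck2 the nearest and the most and least correlated genes. Cblb, Pak1, Phlpp1 and Phlpp2 were added after their values were seen. Labels number the libraries within a group without saying what a number stands for. A p-value therefore reflects the spread among these libraries, which may be technical between replicates 1 and 2. Replicate 3 alone held Y-linked RNA, so it was not a technical repeat of the same animals. Deviations from the group means correlated at 0.752, 0.505 and 0.783 for replicates 1, 2 and 3, all above 0.1. On this evidence from the data, not a label, same-numbered libraries were treated as pairs in the replicate block and in ratios by replicate number. The main fit did not pair them. Replicate 3 stood apart in both groups, which raises all correlations between replicates 1 and 2. The unmatched values were 0.663 (replicate 1 of Cd28 KO, replicate 2 of WT) and 0.535 (the reverse), the second of them above the matched 0.505, so the pairing of replicates 1 and 2 is assumed. The fit without a block remained the main one, and SEs are from it unless another fit is named.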

Additional observations from a re-analysis of the deposited data

How the results depend on the processing

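Settings tried were a pseudocount of 0.1, no filter, a minimum mean of 5 FPKM, TPM scale, quantile normalization, median centring, the replicate block, a batch term for replicate 3, replicates 1 and 2 only, and leaving out each library. Limma called 2 genes without a block and in each leave-one-out fit, 5 with no filter, 18 with the replicate block, 28 with the batch term and 71 in replicates 1 and 2. It called 1 member, Nck2, with the replicate block, the batch term and replicates 1 and 2, and 0 members and 0 other pathway genes elsewhere. The block called 0 of the other pathway genes too. The log2 difference of Nck2 was negative in all 14 settings that tested it, from -1.32 to -0.94, and the minimum of 5 FPKM left it out. Grb2 was negative in all 15. Pik3ap1, Pik3r1, Pik3cd, Pik3cg, Prkcd, Nck1 and Vav1 took either sign, and Akt1 ranged from -0.12 to 0.00. When single libraries were left out, the members' median ran from -0.08 to 0.00 and the Cd28 difference from -19.1 to -8.56 FPKM. Read depth is unknown, which limits low values such as those of Nck2 most.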
